A study of Mus musculus with 8 samples.

Results

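Matrix metalloproteinases (MMPs), ADAMTS proteinases (a disintegrin and metalloproteinase with thrombospondin motifs) and tissue inhibitors of metalloproteinases (TIMPs) were examined in cortical bone. The bone came from WT mice and from mice with a conditional deletion of *Piezo1*, the gene of a mechanically activated cation channel. The genes were taken by name, as symbols made of *Mmp*, *Adamts* or *Timp* and a number, with earlier results of these data known. The ADAMTS-like (*Adamtsl*) genes, which encode proteins without a proteinase domain, were left out. The deposited table of 19201 genes held 39 of them, made up of 17 MMPs, 18 ADAMTS genes and 4 TIMPs. RNA was extracted from ground cortical bone of C57BL/6J mice aged 6 weeks. The 4 WT libraries were compared with 4 libraries of Prx1Cre; Piezo1fl/fl mice (*Piezo1*-deficient below), and both groups are numbered 1, 3, 4 and 5, the order in which values per library are listed throughout. In the latter, Cre recombinase under the Prx1 promoter removes the floxed gene in progenitors of the limb skeleton and its connective tissue, while cells of blood origin, such as osteoclasts and neutrophils, keep it. Whether the WT mice carried a floxed allele or Cre, and whether each library is a separate animal, is not given in the labels. The p-values therefore set the genotype difference against the spread between libraries, which may be technical.

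MMPs are zinc-dependent endopeptidases, made as inactive precursors, that between them cut most proteins of the extracellular matrix. Collagenases open the collagen triple helix, gelatinases degrade the unwound chains, and the membrane-type enzymes act at the cell surface, where MT1-MMP (*Mmp14*) also activates proMMP-2. Among the ADAMTS enzymes, one branch cuts aggrecan and versican, and another removes the amino-terminal propeptide of fibrillar procollagens. TIMPs bind the active site of MMPs, and TIMP-3 inhibits several ADAMTS enzymes as well. In growing bone, osteoclasts are the best known source of MMP-9, hypertrophic chondrocytes and osteoblasts of MMP-13, and neutrophils store MMP-8, MMP-9 and MMP-25. Bone was ground whole, so fewer cells of a type and less RNA per cell cannot be told apart in these values.

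Libraries held 11963536 to 14536106 counts. *Piezo1* fell from 2476 to 3071 counts in WT to 1561 to 1898 counts in *Piezo1*-deficient libraries (log2 fold change -0.57, adjusted p = 0.0027 from edgeR). *Piezo1*-deficient replicate 1 stood apart from the other libraries of its genotype, with summed neutrophil markers at 2570 CPM against 5021 to 6888 and summed osteoblast markers at 169930 CPM against 119384 to 143772. WT replicate 1 differed from the other WT libraries in the same directions, at 4592 CPM against 6219 to 6847 and 115826 CPM against 93697 to 105721. CPM are counts scaled to library size, here after TMM normalisation. Markers of osteoblasts and osteocytes, by which the tissue label was checked, were present in each library, with sums of at least 93697 and 2686 CPM. The 10 markers of skeletal muscle all rose, with sums of 11.2 to 158 CPM in WT and 458 to 4436 CPM in *Piezo1*-deficient libraries. Of 14 markers of growth plate chondrocytes, 12 fell, with sums of 6370 to 11277 CPM in WT and 4909 to 6156 CPM in *Piezo1*-deficient libraries. Most of the latter sum was *Col11a1*, which was not called (means of 4194 and 5077 CPM), and the median log2 fold change of the 14 was -3.73. Tendon and periosteal fibroblast markers (3 of 8 rose) summed to 1703 to 2737 CPM and 2746 to 4153 CPM. No marker in these lists was at 0 in all libraries. The part of these tissues in the results was not tested.

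The transcripts of the families were concentrated in few genes. Levels of different genes were compared as CPM per kb of exon, means of 4 libraries with SD. In WT bone, *Mmp13* (collagenase-3) stood at 921 ± 72.0 CPM per kb, *Mmp9* (gelatinase B) at 847 ± 37.6, *Mmp14* at 475 ± 40.1 and *Mmp2* (gelatinase A) at 295 ± 51.3. The most abundant inhibitors per length were *Timp1* at 184 ± 29.8 and *Timp2* at 94.5 ± 12.7 CPM per kb. *Adamts2*, the main procollagen N-proteinase, led the ADAMTS genes at 36.0 ± 3.43 CPM per kb. In *Piezo1*-deficient bone *Mmp13* stood at 661 ± 249.5 CPM per kb, *Mmp9* at 531 ± 121, *Mmp14* at 514 ± 75.4 and *Mmp2* at 402 ± 77.0. *Mmp13*, *Mmp9* and *Mmp14* then lay within the SD of *Mmp13* of each other, whereas in WT bone *Mmp9* and *Mmp14* were well apart. *Mmp9*, *Mmp13*, *Mmp14* and *Mmp2* together took 93.7% to 95.8% of the summed MMP CPM in each library. All 39 genes took 0.971% to 1.04% of the counts in WT libraries and 0.698% to 0.989% in *Piezo1*-deficient libraries, of which the 0.989% was replicate 1.

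**Figure D1:**
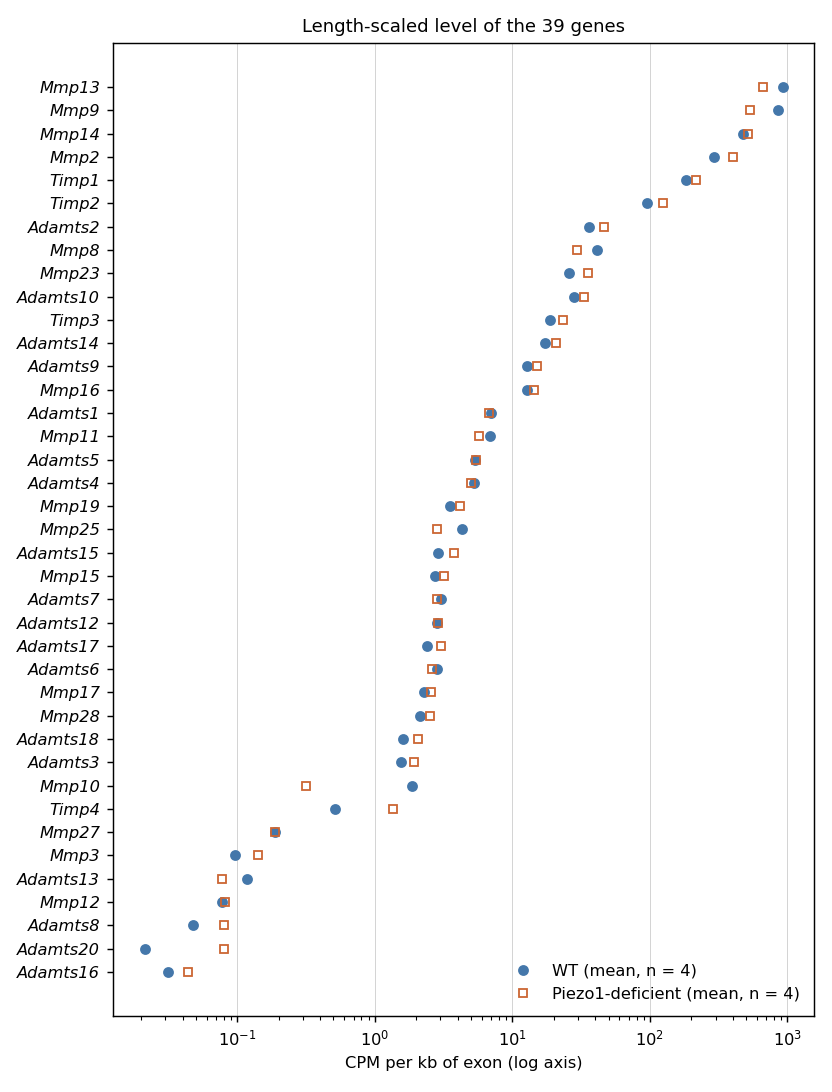
Mean level of each of the 39 genes in CPM per kb of exon (log axis) in 4 WT libraries (filled circles) and 4 *Piezo1*-deficient libraries (open squares). *Mmp13* and *Mmp9* lead in WT bone at 921 and 847 CPM per kb, and 7 genes at the bottom, from *Mmp27* to *Adamts16*, were too low to be tested.

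Of the 39 genes, 32 passed the filter on low counts and were tested between the genotypes. In *Piezo1*-deficient bone *Mmp10* and *Mmp9* fell, and *Timp4* and *Adamts15* rose. These 4 genes (12.5% of those tested) had an adjusted p under 0.05, as did 3.02% of all 15318 genes tested. By direction they were 2 members higher, where 2.04% of all genes were higher, and 2 lower, where 0.973% were lower. Most of the others had positive log2 fold changes, which are given throughout as *Piezo1*-deficient over WT: 22 of the 32 were positive, with a median of 0.22, whereas 51.1% of all tested genes were positive with a median of 0.005. An unadjusted p under 0.05 was reached by 19 of the 32 and by 18.4% of all tested genes. When the fold had to exceed 1.5 at an unadjusted p under 0.05, 4 members passed (*Mmp10*, *Mmp9* and *Mmp25* lower, *Timp4* higher), against 5.07% of all genes. Among the 32 tested members, 7 showed no overlap between the genotypes (11.9% of all genes tested): *Mmp10* and *Mmp9* were lower in each *Piezo1*-deficient library (5.27% of all genes), and *Timp4*, *Adamts15*, *Adamts17*, *Adamts3* and *Mmp15* were higher in each (6.65% of all genes). Among the 7 untested members, *Adamts20* did not overlap in CPM, with 0.392 CPM in the highest WT and 0.423 CPM in the lowest *Piezo1*-deficient library. Its counts did meet, at 1 to 5 in WT and 5 to 18 in *Piezo1*-deficient libraries. The share of such genes among those not tested was not taken.

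**Figure D2:**
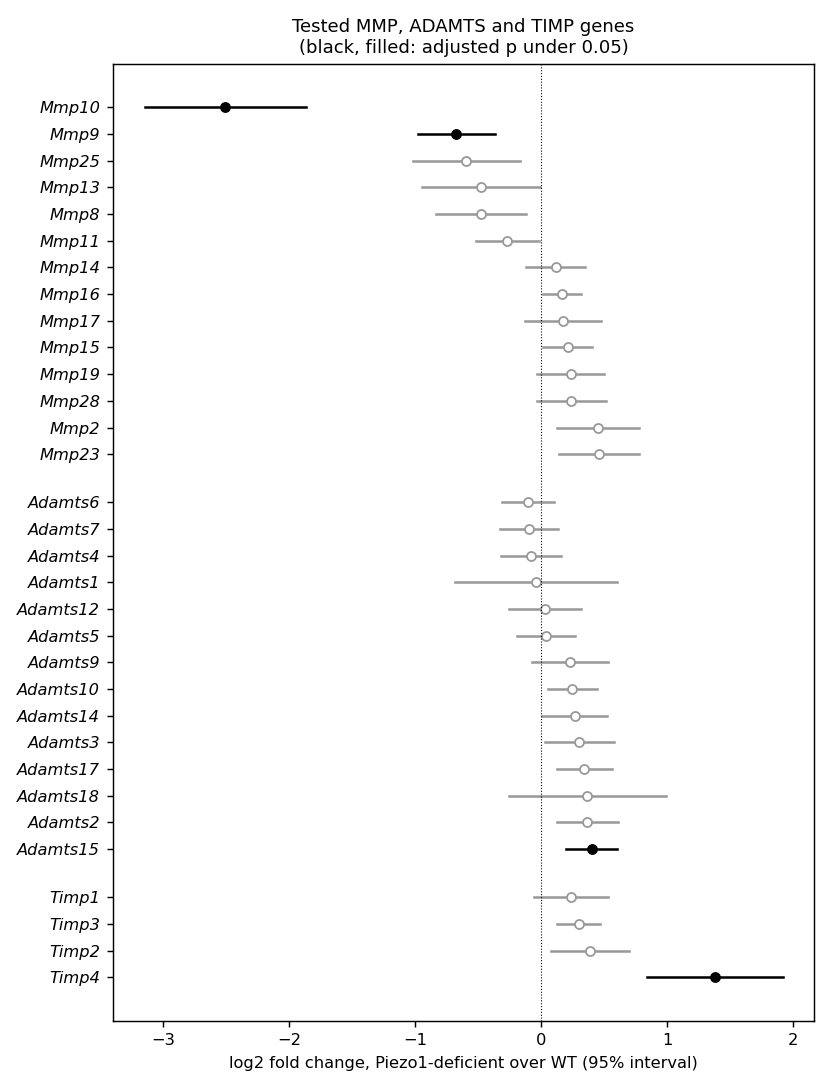
Log2 fold change (*Piezo1*-deficient over WT, x axis) of the 32 tested genes with its 95% interval, by family. The 4 genes with an adjusted p under 0.05 are filled black: *Mmp10* at -2.51, *Mmp9* at -0.67, *Adamts15* at 0.40 and *Timp4* at 1.38.

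The collagenases were lower on average in *Piezo1*-deficient bone without passing the test. *Mmp13*, which cuts collagens I and II and is needed for removal of hypertrophic cartilage, had 2750, 2374, 2384 and 2342 CPM in WT bone and 2704, 1422, 1766 and 1184 CPM in *Piezo1*-deficient bone. Replicate 1 of the latter lay within the WT range, and the other 3 lay below it. The log2 fold change was -0.48 (95% interval -0.94 to -0.01, adjusted p = 0.259 from edgeR). Without *Piezo1*-deficient replicate 1 *Mmp13* was called lower, with a log2 fold change of -0.76 (adjusted p = 0.0055 from edgeR). Of 5 markers of hypertrophic chondrocytes, *Col10a1* and *Ihh* fell (log2 fold changes -3.41 and -3.33), while *Spp1*, *Ibsp* and *Pth1r*, which osteoblasts also express, were not called (-0.03, 0.12 and 0.19). The sum of the 5 overlapped, at 10556 to 13377 CPM in WT and 7859 to 15308 CPM in *Piezo1*-deficient libraries. Set against *Col10a1* alone, *Mmp13* was 1.42 to 2.38 times as high in WT libraries and 8.04 to 19.2 times in *Piezo1*-deficient libraries, on the CPM scale. The sum of 6 osteoblast markers was 93697 to 115826 CPM in WT and 119384 to 169930 CPM in *Piezo1*-deficient libraries. Most of it was *Col1a1* (means of 95776 and 130990 CPM), which was not called, and of the 6 only *Bglap* rose. The mean of *Mmp13* in *Piezo1*-deficient bone was 71.8% of that in WT. The part of either cell type in these values was not tested.

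*Mmp8*, the collagenase of neutrophil granules, had 89.7, 83.9, 120 and 108 CPM in WT bone and 52.3, 92.1, 68.7 and 75.2 CPM in *Piezo1*-deficient bone. The genotypes overlapped through *Piezo1*-deficient replicate 3. Its log2 fold change was -0.48 (95% interval -0.84 to -0.12, adjusted p = 0.147 from edgeR). *Mmp25*, a membrane-anchored MMP of leukocytes, was lowest in the same library, at 6.85 CPM in *Piezo1*-deficient replicate 1, with 8.72 to 12.8 CPM in the others and 11.1 to 16.7 CPM in WT. Its log2 fold change was -0.60 (95% interval -1.02 to -0.17, adjusted p = 0.124 from edgeR). None of 8 neutrophil markers was called, all 8 had negative log2 fold changes (median -0.28), and their sum was 4592 to 6847 CPM in WT and 2570 to 6888 CPM in *Piezo1*-deficient libraries. Relative to that sum, *Mmp8* ran from 0.0135 to 0.0195 in WT libraries and from 0.0109 to 0.0203 in *Piezo1*-deficient libraries, so that the ranges overlapped. For both genes and for the marker sum, *Piezo1*-deficient replicate 1 was the lowest of all 8 libraries.

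The gelatinases had log2 fold changes of opposite sign, and only that of *Mmp9* passed the test. *Mmp9* had 2930, 2849, 3071 and 3142 CPM in WT bone and 2501, 1719, 1788 and 1515 CPM in *Piezo1*-deficient bone. The genotypes did not overlap, and replicate 1 of the lower group came closest to WT. The mean of *Mmp9* fell from 2998 ± 133 to 1881 ± 429 CPM (± SD of 4 libraries), 62.7% of the WT level (log2 fold change of -0.67 with an SE of 0.14; edgeR adjusted p = 0.0294). The two-sided exact permutation test gave p = 0.0286, which no arrangement of 8 libraries can undercut. The call was lost without any 1 of WT replicates 3, 4 and 5 or *Piezo1*-deficient replicates 3 and 4 (adjusted p up to 0.09995 from edgeR), with log2 fold changes of -0.84 to -0.59 whichever library was left out. Osteoclast markers were lower too: of 8, all had negative log2 fold changes and 3 fell (*Ocstamp*, *Itgb3* and *Oscar*). The sum of the 8 was 5782 to 6858 CPM in WT and 3770 to 5681 CPM in *Piezo1*-deficient libraries. Most of it was *Ctsk* (means of 2622 and 1996 CPM) and *Acp5* (means of 3069 and 2225 CPM), neither of which was called. *Mmp9* was 0.440 to 0.507 of that sum in WT libraries and 0.486, 0.408, 0.315 and 0.402 of it in *Piezo1*-deficient bone. Of 6 markers of monocytes and macrophages, *Csf1r* and *Cd68* fell. In mice of this genotype, the paper reports increased osteoclast number and surface in tibial sections and a raised serum marker of bone resorption. Those are measures of sections and serum, not of RNA from ground cortical bone. How far the number of osteoclasts enters the fall of *Mmp9* was not tested.

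**Figure D3:**
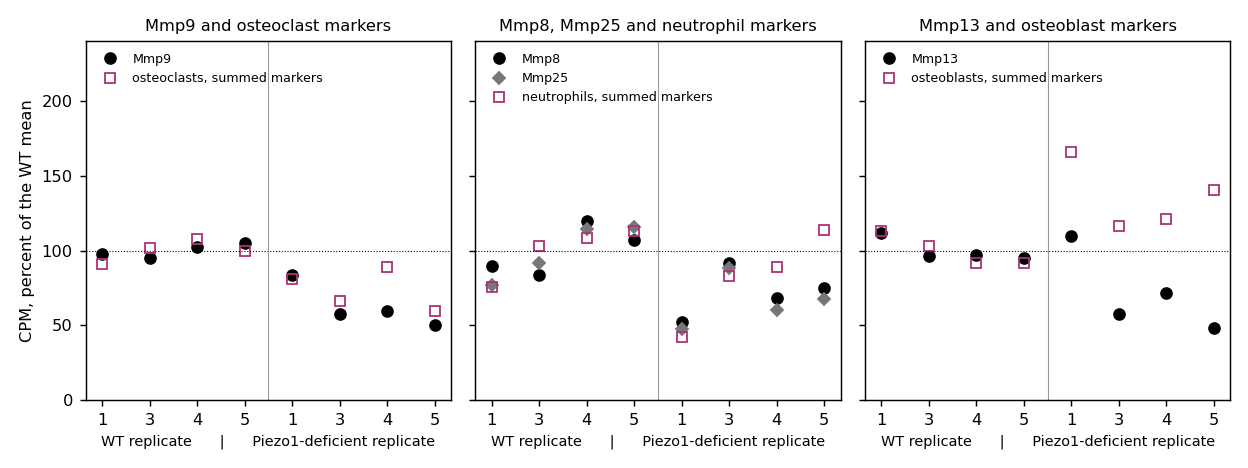
Level in each library as a percentage of the WT mean (y axis) for *Mmp9*, *Mmp8*, *Mmp25* and *Mmp13* (filled symbols) beside the summed markers of osteoclasts, neutrophils and osteoblasts (open squares). In the *Piezo1*-deficient libraries *Mmp9* stands at 83.4% to 50.5% and the osteoclast sum, which is mostly *Ctsk* and *Acp5*, at 89.3% to 59.3%. *Mmp13* lies below the osteoblast sum, which is mostly *Col1a1*, in each of them.

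*Mmp2*, which is made by stromal and osteoblastic cells, had 1113, 887, 829 and 750 CPM in WT bone and 1557, 1026, 1110 and 1196 CPM in *Piezo1*-deficient bone. WT replicate 1 overlapped the lower *Piezo1*-deficient libraries. The log2 fold change of 0.45 (95% interval 0.12 to 0.78) did not pass the adjustment (adjusted p = 0.133 from edgeR). As a description of the pair, *Mmp9* was 2.63 to 4.19 times *Mmp2* in WT libraries and 1.27 to 1.68 times in *Piezo1*-deficient libraries, on the CPM scale.

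*Mmp10* (stromelysin-2), a broad matrix proteinase of the stromelysin branch, had the most negative log2 fold change of the 32. It was counted 30, 57, 41 and 46 times in WT and 7, 10, 7 and 4 times in *Piezo1*-deficient bone. The lowest WT library stood well above the highest *Piezo1*-deficient library. The mean fell to 17.2% of WT, from 3.19 ± 0.83 to 0.55 ± 0.16 CPM (± SD of 4 libraries; log2 fold change of -2.51 with an SE of 0.29, edgeR adjusted p = 0.0027, exact permutation p = 0.0286). It was called under all 13 alternatives that tested it, with adjusted p up to 0.0178 (edgeR). Growth plate chondrocyte markers fell in the same libraries (12 of 14). Of 5 hypertrophic chondrocyte markers, only *Col10a1* and *Ihh* fell (log2 fold changes -3.41 and -3.33). Among WT libraries, replicate 1 had the highest growth plate sum, at 11277 CPM, and the lowest *Mmp10*, at 2.35 CPM. The part of either cell type in the result was not tested. Of the other stromelysins, *Mmp11* (stromelysin-3) had 15.1, 21.0, 18.5 and 17.7 CPM in WT and 16.5, 13.5, 15.5 and 14.6 CPM in *Piezo1*-deficient bone, with overlap (log2 fold change -0.27, adjusted p = 0.245 from edgeR), and shares 73 exon bases with *Gm867* on the same strand. *Mmp3* (stromelysin-1) had at most 6 counts in a library and was not tested.

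*Mmp10* lies in a cluster of 10 MMP genes in RefSeq that spans 427 kb of chromosome 9 (GRCm38.p6, 7272514 to 7699585). Of these, 6 are in the table and 3 were tested. From the *Mmp13* end, the order of the 6 is *Mmp13* (7272514 to 7283333), *Mmp12* (7344397 to 7360461), *Mmp3* (7445822 to 7455975), *Mmp10* (7502342 to 7510242), *Mmp8* (7558429 to 7568486) and *Mmp27* (7571396 to 7581885). The tested neighbours *Mmp13*, *Mmp10* and *Mmp8* all had negative log2 fold changes, of -0.48, -2.51 and -0.48. *Mmp10* was 0.000855 to 0.00175 of *Mmp13* in WT libraries and 0.000219 to 0.000519 of it in *Piezo1*-deficient libraries, on the CPM scale.

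Promoters of 26 members are held by the RefSeq table used here (GRCm38.p6), and that of *Mmp9* or *Adamts15* is not among them. The window was the 250 bases before the first start site listed for each gene. There the AP-1 motif TGANTCA (its reverse complement is the same pattern) was found in 3 of the 26. The shares of all promoters given here are over 32851 listed promoters, where a gene can have several, and 6.75% of them hold this motif. *Mmp12* holds it only in the window of a later-listed transcript. All 3, *Mmp10*, *Mmp13* and *Mmp3*, lie in the chromosome 9 cluster, and all 3 also hold the TATA box letters TATAAA (on either strand), which 12.4% of all promoters hold. With *Adamts1* on chromosome 16, which lacks the AP-1 motif, 4 of the 26 hold TATAAA. The RUNX motif TGTGGT (either strand, 14.0% of all promoters) was found in *Mmp13*, *Mmp14*, *Mmp23* and *Mmp27*. AP-1 is a dimer of Fos and Jun proteins long known to act on stromelysin and collagenase promoters. The sequences below show the gene that fell, its less changed neighbour and *Timp4*, which rose and holds none of these motifs, each 5′ to 3′ on the strand of the gene and ending at the base before the start site. They are chr9:7502092-7502341 on the plus strand for *Mmp10*, chr9:7272264-7272513 on the plus strand for *Mmp13* and chr6:115252206-115252455 on the minus strand for *Timp4*. Capitals mark the AP-1 motif.
*Mmp10*: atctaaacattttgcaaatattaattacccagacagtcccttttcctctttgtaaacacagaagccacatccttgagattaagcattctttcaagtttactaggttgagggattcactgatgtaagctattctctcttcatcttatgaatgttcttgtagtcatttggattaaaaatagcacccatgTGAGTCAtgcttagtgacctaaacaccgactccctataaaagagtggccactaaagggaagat
*Mmp13*: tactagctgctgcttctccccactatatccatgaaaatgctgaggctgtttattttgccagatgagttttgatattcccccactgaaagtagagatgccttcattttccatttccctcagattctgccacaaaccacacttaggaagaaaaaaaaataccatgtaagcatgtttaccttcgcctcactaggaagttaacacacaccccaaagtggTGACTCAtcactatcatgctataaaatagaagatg
*Timp4*: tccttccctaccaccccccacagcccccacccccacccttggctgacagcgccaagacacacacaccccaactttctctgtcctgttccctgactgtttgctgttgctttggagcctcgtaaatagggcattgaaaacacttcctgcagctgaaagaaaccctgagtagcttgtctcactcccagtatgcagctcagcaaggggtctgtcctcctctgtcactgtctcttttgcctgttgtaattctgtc

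The AP-1 match begins 63 bases before the start site in *Mmp10* and 35 bases before it in *Mmp13*, so 2 promoters of the cluster with the same motif belong to genes whose log2 fold changes were -2.51 and -0.48. In *Mmp3*, with at most 6 counts, it begins 46 bases before the start. The matches describe the letters only.

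None of the membrane-type MMPs passed the test. *Mmp14*, the activator of proMMP-2, had 1369, 1256, 1167 and 1138 CPM in WT bone and 1629, 1233, 1251 and 1231 CPM in *Piezo1*-deficient bone. Apart from *Piezo1*-deficient replicate 1, the libraries lay between 1138 and 1369 CPM. Its log2 fold change was 0.12 (95% interval -0.12 to 0.35, adjusted p = 0.617 from edgeR), an interval within 1.5-fold either way. *Mmp15* and *Mmp16*, further transmembrane forms, had log2 fold changes of 0.21 and 0.17 (adjusted p = 0.227 and 0.218 from edgeR). *Mmp15* did not overlap between the genotypes, at 11.4 to 12.4 CPM in WT and 13.1 to 14.3 CPM in *Piezo1*-deficient bone. *Mmp17*, like *Mmp25* held by a lipid anchor, had a log2 fold change of 0.17 (95% interval -0.13 to 0.48).

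Of the remaining MMPs, *Mmp23*, a small enzyme that lacks the usual haemopexin domain, had 75.5, 61.9, 55.2 and 49.1 CPM in WT bone and 104, 74.8, 77.1 and 75.6 CPM in *Piezo1*-deficient bone. WT replicate 1 lay just above the lowest *Piezo1*-deficient library. Its log2 fold change was 0.46 (95% interval 0.14 to 0.77, adjusted p = 0.117 from edgeR). *Mmp19* and *Mmp28* (epilysin) had log2 fold changes of 0.23 and 0.24, with adjusted p of 0.335 for both (edgeR). On the other strand, *Mmp28* shares 465 exon bases with *1700020L24Rik* and *Mmp19* 789 with *1110012D08Rik*. *Mmp12*, the elastase of macrophages, and *Mmp27* had at most 15 and 8 counts in a library and were not tested.

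The procollagen N-proteinases *Adamts2*, *Adamts14* and *Adamts3*, which trim fibrillar procollagens before fibrils form, all had positive log2 fold changes, of 0.37, 0.27 and 0.30, and none passed the adjustment (adjusted p = 0.103, 0.255 and 0.225 from edgeR). *Adamts2* had 376, 346, 320 and 302 CPM in WT bone and 515, 362, 415 and 444 CPM in *Piezo1*-deficient bone. Only *Piezo1*-deficient replicate 3 overlapped WT. *Adamts3*, best known for the cut in type II procollagen, had 14.0, 14.8, 10.4 and 13.9 CPM in WT and 14.96, 16.3, 15.6 and 18.6 CPM in *Piezo1*-deficient bone. The genotypes did not overlap for *Adamts3* (two-sided exact permutation p = 0.0286, the value of any gene without overlap). The gap between the nearest libraries, 14.78 and 14.96 CPM, was however small beside the SD of 1.95 CPM in WT. *Adamts14* had 83.4 to 93.0 CPM in WT and 89.1 to 136 CPM in *Piezo1*-deficient libraries. Of their collagen substrates, *Col2a1* fell (log2 fold change -3.12). *Col1a1*, *Col1a2* and *Col3a1* had positive log2 fold changes of 0.45, 0.38 and 0.89 and were not called. *Col1a1* and *Col3a1* were higher in each *Piezo1*-deficient library, as were 6.65% of all genes tested, and *Col1a2* overlapped.

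Among the proteoglycanases, which cut aggrecan and versican, *Adamts15* rose and the others were not called. *Adamts15* had 19.3, 15.3, 17.0 and 16.4 CPM in WT bone and 23.2, 21.8, 21.5 and 23.3 CPM in *Piezo1*-deficient bone. All *Piezo1*-deficient libraries lay above all WT libraries, and *Piezo1*-deficient replicate 1 lay within the range of its genotype. The mean rose from 17.0 ± 1.68 to 22.4 ± 0.92 CPM (± SD of 4 libraries), with a log2 fold change of 0.40 (SE 0.090; edgeR adjusted p = 0.0420, exact permutation p = 0.0286). It lost its call without any 1 of WT replicates 3, 4 and 5 or *Piezo1*-deficient replicates 3, 4 and 5 (adjusted p up to 0.138 from edgeR), with log2 fold changes of 0.35 to 0.47 whichever library was left out. Its neighbour *Adamts8* on chromosome 9 (*Adamts15* at 30899155 to 30922452, *Adamts8* at 30942562 to 30963838) had at most 7 counts and was not tested.

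The aggrecanases best known from cartilage, *Adamts4* and *Adamts5*, had log2 fold changes of -0.08 (95% interval -0.31 to 0.16) and 0.04 (95% interval -0.20 to 0.27). Their levels were 24.7 to 26.7 CPM and 40.1 to 49.4 CPM in WT and 20.8 to 29.8 CPM and 36.3 to 49.96 CPM in *Piezo1*-deficient libraries. *Acan*, their main substrate in cartilage, fell in the same libraries (log2 fold change -3.06). *Adamts9*, the most abundant of the group, had 140, 144, 169 and 192 CPM in WT bone and 198, 232, 175 and 153 CPM in *Piezo1*-deficient bone (log2 fold change 0.23, adjusted p = 0.400 from edgeR). The genotypes overlapped, and the exons of *Adamts9* overlap those of *A730049H05Rik* on the other strand. *Adamts1* had 48.6, 31.2, 33.7 and 34.8 CPM in WT and 64.5, 29.3, 28.5 and 22.1 CPM in *Piezo1*-deficient bone. Replicate 1 was the highest library in each genotype, and the log2 fold change of -0.04 had a 95% interval of -0.68 to 0.60. *Adamts20* had at most 18 counts and was not tested.

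None of the further ADAMTS genes passed the test. *Adamts17* and *Adamts10*, of the branch tied to fibrillin microfibrils, had log2 fold changes of 0.34 and 0.25 (adjusted p = 0.0924 and 0.166 from edgeR). *Adamts17* had 15.6 to 19.76 CPM in WT and 19.78 to 23.1 CPM in *Piezo1*-deficient libraries, so that the genotypes were only just separate. *Adamts10*, the most abundant of these, had 163, 153, 136 and 156 CPM in WT bone and 209, 171, 181 and 163 CPM in *Piezo1*-deficient bone, so that WT replicate 1 just overlapped the lowest *Piezo1*-deficient library. *Adamts18* had 14.3, 8.81, 9.07 and 6.17 CPM in WT and 19.4, 10.8, 10.03 and 9.22 CPM in *Piezo1*-deficient bone, again highest in replicate 1 of each genotype (log2 fold change 0.37, 95% interval -0.25 to 0.99, adjusted p = 0.536 from edgeR). Its log2 fold change was 0.62 without WT replicate 1 and 0.064 without *Piezo1*-deficient replicate 1. *Adamts6* had a log2 fold change of -0.10 (95% interval -0.31 to 0.10). *Adamts7* and *Adamts12*, which cut cartilage oligomeric matrix protein, had log2 fold changes of -0.09 and 0.03 (95% intervals -0.32 to 0.14 and -0.25 to 0.31). *Adamts7* had 19.5, 19.4, 17.4 and 20.5 CPM in WT and 21.2, 17.7, 17.2 and 15.8 CPM in *Piezo1*-deficient bone, and its exons overlap those of *Tbc1d2b* on the other strand. *Comp*, the substrate, fell (log2 fold change -2.82). *Adamts13*, which cuts von Willebrand factor, and *Adamts16* had at most 14 and 6 counts and were not tested.

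All 4 inhibitors had positive log2 fold changes, and only *Timp4* passed the test. *Timp4* had 12, 8, 13 and 7 counts in WT bone and 19, 26, 29 and 23 in *Piezo1*-deficient bone. The genotypes did not overlap. The mean rose from 0.73 ± 0.19 to 1.91 ± 0.22 CPM (± SD of 4 libraries), a fold change of 2.60 (log2 fold change of 1.38 with an SE of 0.24; edgeR adjusted p = 0.0169, exact permutation p = 0.0286). In WT it had the lowest CPM of the tested members. Leaving out any 1 of WT 3, 4 and 5 or *Piezo1*-deficient replicate 4 ended the call (adjusted p up to 0.0679 from edgeR). *Timp4* is known from heart, muscle and fat, and skeletal muscle markers rose in the same libraries. In the *Piezo1*-deficient libraries these markers summed to 458, 4436, 1824 and 464 CPM, and *Timp4* ran from 1.61 CPM in replicate 1 to 2.12 CPM in replicate 4. The part of muscle in the result was not tested. Adipocyte markers summed to 64.0 to 89.2 CPM in WT and 72.5 to 186 CPM in *Piezo1*-deficient libraries, with none of 4 called. *Timp4* (GRCm38.p6, chromosome 6, 115244444 to 115252205) lies within the span of *Syn2* on the other strand and shares no exon with it. *Syn2* itself had 14 to 24 counts in WT and 9 to 27 in *Piezo1*-deficient libraries (log2 fold change 0.06).

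*Timp3*, the inhibitor that binds to the matrix, had 172, 143, 151 and 149 CPM in WT bone and 198, 192, 197 and 171 CPM in *Piezo1*-deficient bone. WT replicate 1 lay just above the lowest *Piezo1*-deficient library, and the log2 fold change was 0.30 (95% interval 0.13 to 0.47, adjusted p = 0.0682 from edgeR). It was called higher by the Wald test of DESeq2 (adjusted p = 0.0141) and without WT replicate 1 (adjusted p = 0.0383 from edgeR). *Timp2*, which takes part in the activation of proMMP-2 by MT1-MMP, had 439, 362, 345 and 326 CPM in WT and 626, 457, 402 and 440 CPM in *Piezo1*-deficient bone (log2 fold change 0.39, 95% interval 0.08 to 0.70, adjusted p = 0.168 from edgeR). *Timp1* had 198, 169, 149 and 138 CPM in WT and 225, 155, 191 and 200 CPM in *Piezo1*-deficient bone, with overlap (log2 fold change 0.24, 95% interval -0.05 to 0.53, adjusted p = 0.370 from edgeR). *Timp1* lies within the span of *Syn1* on the other strand, which had 20 to 39 counts, and *Timp3* shares 1733 bases of exon with *Syn3* on the other strand.

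**Figure D4:**
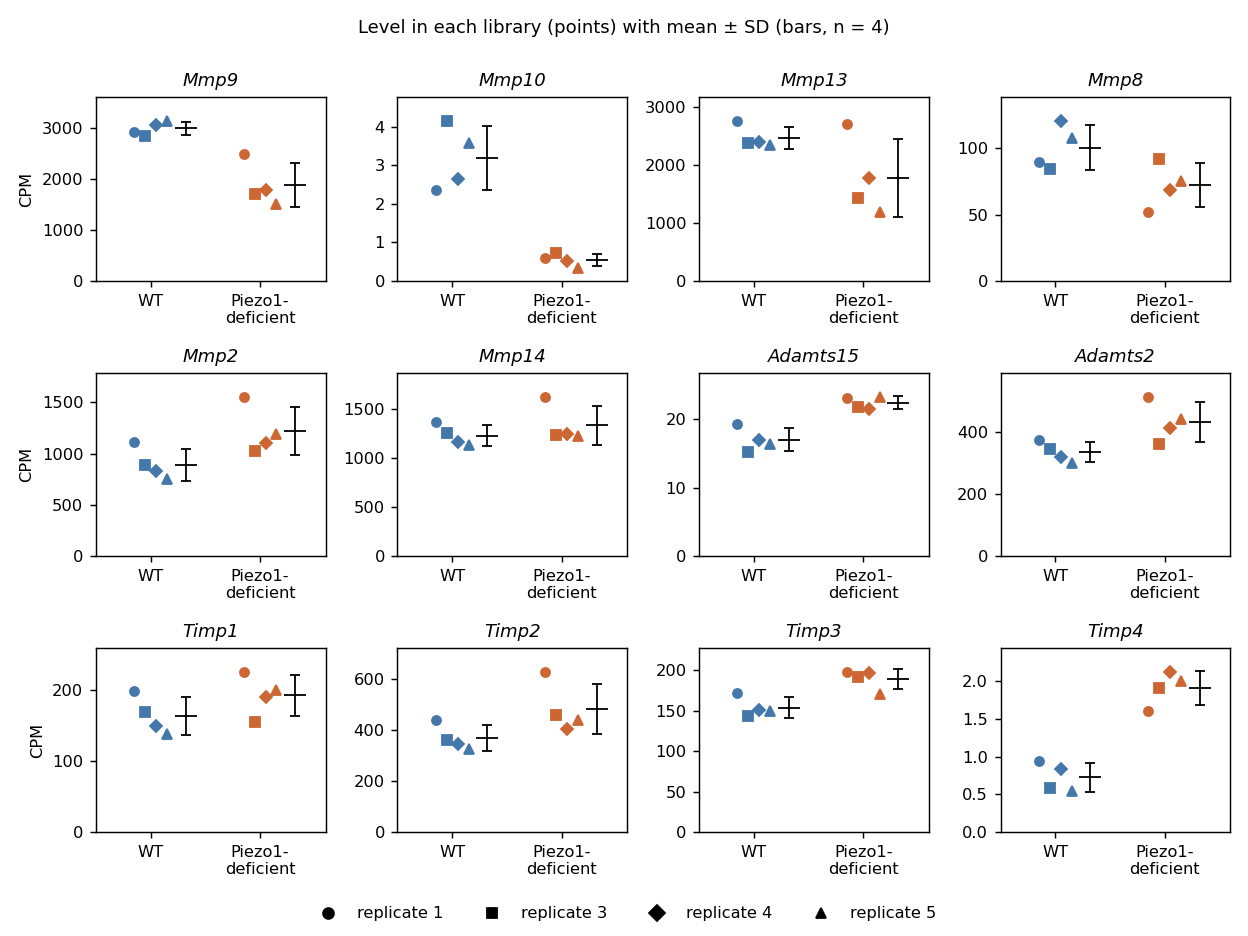
CPM in each library (points, shaped by replicate number) with the mean and SD of 4 libraries (black bars) for 12 of the genes, each on a linear axis from 0. *Mmp9*, *Mmp10*, *Adamts15* and *Timp4* show no overlap of the genotypes, and *Piezo1*-deficient replicate 1 lies apart for *Mmp13*, at 2704 CPM, and *Mmp14*, at 1629 CPM.

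Summed over each family, the inhibitors had 613 to 811 CPM in WT and 791 to 1051 CPM in *Piezo1*-deficient libraries, and the MMPs 7701 to 8518 CPM and 5467 to 8757 CPM. The ratio of the TIMP sum to the MMP sum was 0.0952, 0.0877, 0.0828 and 0.0795 in WT bone and 0.120, 0.140, 0.127 and 0.149 in *Piezo1*-deficient replicates. The ratio did not overlap between the genotypes and was higher in *Piezo1*-deficient bone, whereas the MMP and TIMP sums themselves overlapped. The ADAMTS sum did not overlap, at 915 to 1004 CPM in WT and 1057 to 1341 CPM in *Piezo1*-deficient libraries. The MMP sum consists mainly of *Mmp9*, *Mmp13*, *Mmp14* and *Mmp2*, and the ratio of transcripts says nothing of the amount or activity of the proteins.

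Other genes that act with these families changed in a few cases. Over all tested genes, 3.02% were called and 51.1% had positive log2 fold changes. Of 6 ADAMTS-like genes, *Adamtsl1* rose (log2 fold change 1.03, adjusted p = 0.0169 from edgeR), and all 6 had positive log2 fold changes with a median of 0.77. Of 13 activators and membrane regulators of MMPs tested, *Pcsk5*, a proprotein convertase, and *Spock2*, a testican proteoglycan, rose (log2 fold changes 0.35 and 1.56), and *Itgb3*, the integrin chain of osteoclasts, fell (log2 fold change -0.43). *Pcolce2*, which enhances procollagen C-proteinase, fell alone among 5 astacin proteinases and enhancers (log2 fold change -1.19, adjusted p = 0.0027 from edgeR). None of 10 membrane ADAM genes, 8 genes of the plasminogen system or 10 cysteine cathepsins and cystatins was called, with medians of 0.04, 0.05 and -0.15. Of 7 matrix substrates of ADAMTS enzymes, *Bcan* and *Dcn* rose and *Acan* and *Comp* fell. *Acan* and *Comp* are also among the growth plate chondrocyte markers that fell, and *Itgb3* is among the osteoclast markers that fell.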

How the data were processed

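RNA-Seq libraries of cortical bone (4 WT, 4 *Piezo1*-deficient) were read from 1 table of raw counts per gene, deposited by the authors. All 8 sample columns were used. The authors' own fold change, p-value and FDR columns were not used. HISAT2 and GRCm38 are named in the submitters' notes on processing, the paper's methods name TopHat, mm9 and Cufflinks. The read counter, the annotation and whether strand was used are not given in the sources used here, so overlapping and paralogous genes may share reads. Precision rests on 11963536 to 14536106 counts in a library.

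The quasi-likelihood F test of edgeR 4.0.16 (R 4.3.3) was applied after filterByExpr, which kept 15318 genes, and TMM scaling, with Benjamini-Hochberg adjustment over all genes tested. Called, risen or fallen means an adjusted p under 0.05. The SE is the absolute log2 fold change over the square root of F, and 95% intervals use the t quantile of the test's degrees of freedom. Single genes were compared by two-sided exact permutation over 70 arrangements. Any gene whose genotypes do not overlap gets p = 0.0286 in this permutation test, unadjusted, so that value only restates the lack of overlap. Exon length and overlaps came from GENCODE M1 (mm9, 39 of 39 genes matched), positions and promoters from RefSeq (GRCm38.p6). The tests were checked on simulated counts. Alternatives were size factors of DESeq2, no filter, a mean of at least 5 CPM, a replicate block, DESeq2 1.42.0 (Wald test), each library left out, and library sizes that omit *Sparc*, *Col1a1* and *Col1a2*. Every member was named; values per library were given for called members, TIMPs, *Adamts3* and the tested member of highest mean CPM in each role group, and also for *Mmp8*, *Mmp2*, *Adamts1* and *Adamts18*, chosen after their values were seen. The members and lists were chosen with earlier results of these data known. *Mmp1a*, *Mmp1b*, *Mmp7*, *Mmp20*, *Mmp21*, *Mmp24*, *Adamts19* and *Syn3* were not analysed here.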

Additional observations from a re-analysis of the deposited data

Results flagged for a closer look

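In 5 of 64 groups of 4 libraries (each tested gene in each genotype), 1 library lay far from the others by Dixon's criterion, which flags about 5% of groups by chance. Of the 5, 4 were *Piezo1*-deficient replicate 1, the highest library of its genotype in each case: *Mmp14* at 1629 CPM (the others 1231 to 1251), *Mmp23* at 104 CPM (74.8 to 77.1), *Adamts1* at 64.5 CPM (22.1 to 29.3) and *Adamts18* at 19.4 CPM (9.22 to 10.8). In WT, *Mmp13* stood at 2750 CPM in replicate 1 (2342 to 2384 in the others). The same *Piezo1*-deficient library had the highest summed osteoblast markers (mostly *Col1a1*) and the lowest summed neutrophil markers of all 8 libraries. Its part in these values was not tested.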

How the results depend on the processing

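*Mmp10* kept its call under every alternative that tested it. The number of members called higher was 4 with the Wald test of DESeq2 (*Adamts2* and *Timp3* added), 1 with a mean of at least 5 CPM, where *Timp4* and *Mmp10* were no longer tested and 1 was called lower, and 6 with a replicate block, which added *Mmp2*, *Mmp23*, *Timp2* and *Timp3*. The replicate numbers paired the libraries at most in part. Deviations from the genotype means correlated at 0.333, -0.218, 0.167 and -0.00949 for replicates 1, 3, 4 and 5. Only replicate 1 correlated best with its own number, and what the libraries numbered 1 have in common was not tested. Over all genes, the replicate block called 506 higher and 320 lower, against 313 and 149 in the main fit. With 1 library left out, 0 to 3 members were called higher and 1 to 3 lower. At 1.5-fold and an unadjusted p under 0.05, 1 to 2 were higher and 2 to 4 lower; no filter gave 2 higher, and a mean of at least 5 CPM gave 0 higher. Size factors of DESeq2 and library sizes without *Col1a1*, *Col1a2* and *Sparc* called the same 4 members. Signs reversed only for uncalled genes near 0, with 1 library left out: *Adamts1* (range -0.47 to 0.13), *Adamts12* (-0.11 to 0.10) and *Adamts5* (-0.029 to 0.11). Why single libraries ended calls was not tested; over all genes, calls fell to 71 higher and 49 lower without WT replicate 5.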
